A study of Phanerodontia chrysosporium with 12 samples.

Results

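In cultures of the wood-decay fungus Phanerochaete chrysosporium (listed as Phanerodontia chrysosporium), 112 of 13602 gene models had a lower transcript level 1 h after oak extractives were added and kept that lower level at 3 h and 6 h. They were chosen by their own values. A member had to reach a mean of 10 CPM in a group, lie at least 1 below T0 on the log2 scale at each of 1, 3 and 6 h, and differ by less than 1 between 1 h and either later time. Each of its 9 later libraries also had to lie below each of its 3 T0 libraries. CPM are reads per 1000000 reads outside 2 gene models that dominate the libraries, and the log2 scale is log2(CPM + 2). This scale understates the difference of low genes. Because the rule used the comparisons with T0, those differences are a description, and nothing is read from tests of them.

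The study asked how the transcriptome of this fungus responds to the acetone-soluble compounds of Quercus petraea heartwood. The homokaryotic strain RP78 was grown for 4 days without shaking at 37 °C in 20 ml of minimal medium with 1% glucose and 1 mM ammonium tartrate, and received extractives, held in DMSO at 200 mg/ml, to a final 100 µg/ml. Mycelium was taken at once (T0), or after 1, 3 or 6 h, in 3 biological replicates each. T0 cultures carried the extractives and the solvent too, so time, solvent and extractives cannot be told apart in a comparison with T0, and cultures given DMSO alone were not analysed here.

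P. chrysosporium is a white-rot basidiomycete, known for degrading lignin with secreted peroxidases. Wood extractives are the defence compounds that such a fungus meets in heartwood, and fungi handle them with oxidising enzymes, conjugating enzymes and exporters. A transcript level falls when synthesis slows, when decay speeds up, or both, and total RNA at a few times does not separate these. The files identify each gene model by a numeric protein ID and do not pair the IDs with names. No role is therefore given for any member, and members are described by their level, time course, length and read support. Mycelial marker genes could not be looked up for the same reason.

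Total gene reads per library ran from 2137932 (1 h replicate 2) to 10697807 (3 h replicate 1). The dominant pair, gene models of 650 and 156 nt, took between 3.12% and 65.9% of them, which left 729521 to 10364009 reads for all other IDs. Among the T0 libraries the pair took 4.31% in replicate 1, 46.8% in replicate 2 and 50.9% in replicate 3. 6 h replicate 3 stood apart at low counts. Among its IDs with 0 to 5 reads, the share with any read was 4.81%, and elsewhere it was 32.1% to 56.7%. An ID with 0 reads may still have up to 4.11 CPM in the shallowest library, 1 h replicate 2, but only 0.289 CPM in the deepest, 3 h replicate 1 (3 counts, counting error only). Read support differed widely between members. In the 3 T0 libraries the members had between 8 and 54743 reads. A library with 0 reads occurred in 8 members, with 4 members at 0 in 6 h replicate 3, 3 in 1 h replicate 2 and 1 in 1 h replicate 3. A library with under 10 reads occurred in 31 members, mostly 1 h replicates 2 and 3.

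The rule kept 9447 IDs that reached 10 CPM in a group, 158 of which were at least 1 lower at all 3 times, 132 of those held within 1 of 1 h, and 112 of those had no overlap between libraries. The other 20 met the fall and the hold but had overlapping libraries. A further 21 were lower at all times without overlap and went on moving by 1 or more after 1 h. The 3 members just inside the fall limit had a smallest difference of 1.00 on the log2 scale, and the 3 IDs just outside had 0.998, 0.997 and 0.991. Between 0.8 and 1 lay another 100 IDs that met the remaining conditions, so the members are the lower end of a continuous range and not a separate cluster.

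Over the 112 members, the median difference from T0 was -1.43 at 1 h (quartiles -1.76 and -1.17), -1.5 at 3 h (quartiles -1.89 and -1.26) and -1.54 at 6 h (quartiles -1.83 and -1.22), all on the log2(CPM + 2) scale. Over the 9447 IDs that reached 10 CPM the same medians were -0.06, -0.02 and -0.11. In CPM, a member's T0 mean was a median of 2.92 times its mean at 1 h, 3.20 times that at 3 h and 3.17 times that at 6 h. The largest ratios were 10.9 at 1 h, 9.49 at 3 h and 9.87 at 6 h. Fewer cells carrying a transcript and less of it per cell cannot be told apart in RNA from whole mycelium.

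Member by member, 17 were at least 2 lower (4-fold on this scale) at 1 h, 23 at 3 h and 21 at 6 h. At all 3 times 9 members passed that size, and 29 stayed under 1.5 throughout. The 9 had a median T0 level of 610.0 CPM and the 29 a median of 63.6 CPM. Across the 112 members, the mean of the 3 differences had a Spearman rho of -0.31 and a Pearson r of -0.39 with log2 T0 level, so the more abundant members tended to have the larger differences. The points share the T0 libraries that enter both measures, and the added 2 CPM shrinks the differences of low members. The 39 members under 50 CPM at T0 had medians of -1.45, -1.35 and -1.45 at 1, 3 and 6 h, and the 73 others had -1.43, -1.63 and -1.56. With 0.5 added in place of 2, the same medians were -1.72, -1.57 and -1.72 for the lower members and -1.46, -1.66 and -1.60 for the others. With 5 added they were -1.12, -1.08 and -1.18 for the lower members and -1.37, -1.57 and -1.47 for the others. The order of these classes at 1 h and 6 h thus depended on the amount added. At 3 h the more abundant members were further below T0 with each amount.

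**Figure D1:**
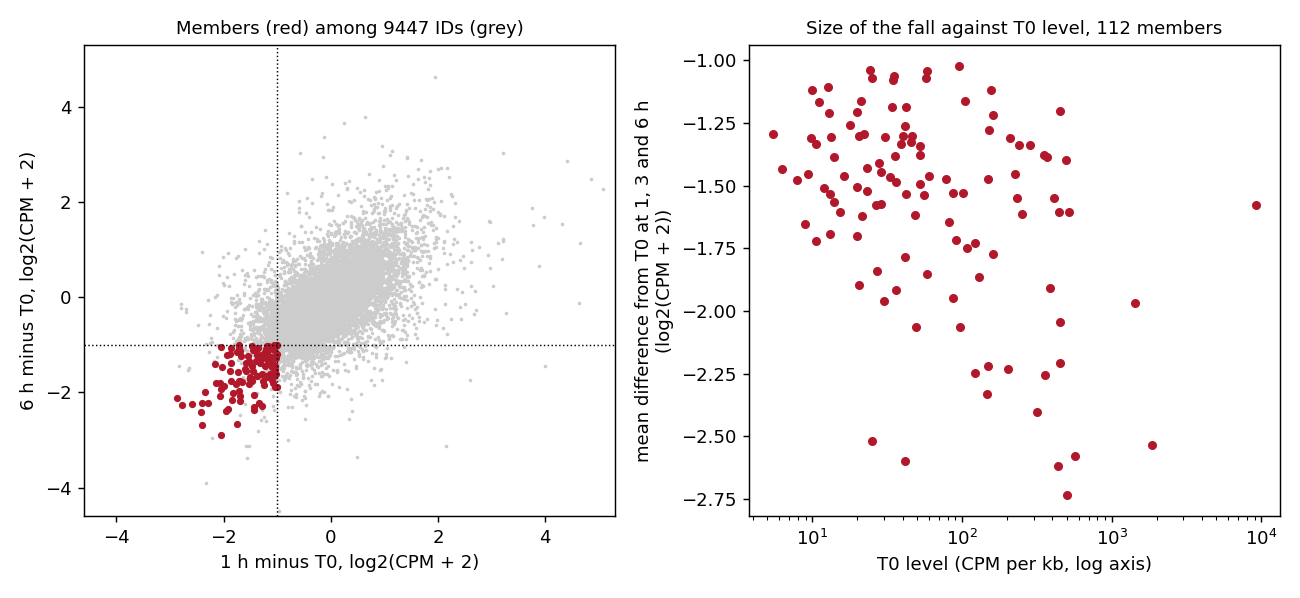
Left, the difference from T0 at 1 h against that at 6 h on the log2(CPM + 2) scale for 9447 IDs (grey) and the 112 members (red), with dotted lines at the limit of 1 below T0. Right, the mean of a member's 3 differences against its T0 level in CPM per kb on a log axis. Large mean differences occur at high and lower levels, as in protein 2981942 at 1854 CPM per kb and protein 3001458 at 41.7 CPM per kb.

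Summed over the members, the reads outside the dominant pair followed the same course. The members held 2.96%, 2.36% and 3.34% in T0 replicates 1 to 3. At 1 h they held 0.956%, 0.780% and 0.794%, at 3 h 0.761%, 0.749% and 0.847%, and at 6 h 1.05%, 0.804% and 0.898%. The group means were 2.89% ± 0.494 (SD, n = 3), 0.843% ± 0.0980, 0.786% ± 0.0531 and 0.916% ± 0.123. The lowest T0 share was above the highest later share, as the choice of members fixes, and the 3 later groups overlapped one another. Without the most abundant member the means were 2.21% ± 0.411 at T0 and 0.667% ± 0.0757, 0.558% ± 0.0549 and 0.626% ± 0.0869 at 1, 3 and 6 h (SD, n = 3).

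**Figure D2:**
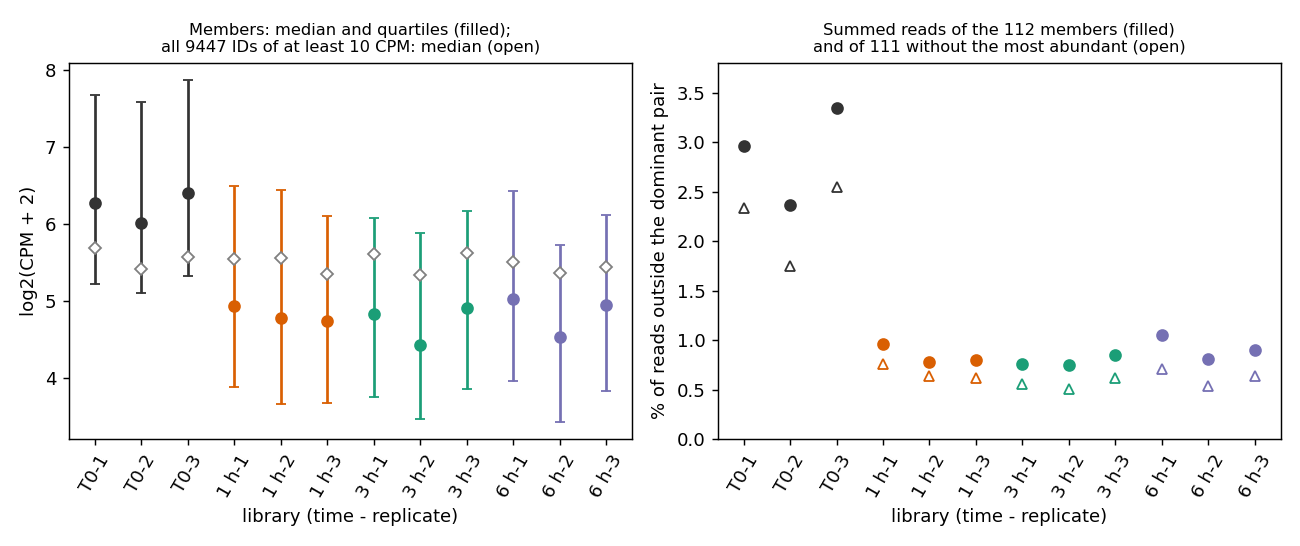
Left, the median and quartiles of the 112 members in each library on the log2(CPM + 2) scale (filled points and bars), with the median of 9447 IDs (open diamonds). The member medians lie between 6.02 and 6.41 at T0 and between 4.43 and 5.02 later, while the open diamonds stay between 5.34 and 5.69. Right, the summed reads of the members as a percentage of reads outside the dominant pair, with the most abundant member (filled) and without it (open).

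The highest member was protein 2939861 (741 nt), which had the highest T0 CPM of the 9447 IDs. It was at 6267, 6116 and 7960.2 CPM in T0 replicates 1 to 3. At 1 h it was at 2020.5, 1469 and 1791 CPM, at 3 h at 2069, 2442 and 2320.1 CPM, and at 6 h at 3429, 2715 and 2584 CPM. The 3 h values lay above the 1 h values and the 6 h values above the 3 h values in every library, so this member had its lowest level at 1 h. Its T0 mean was 3.85 times the 1 h mean, 2.98 times the 3 h mean and 2.33 times the 6 h mean. Per length it stood at 9151 CPM per kb at T0, 5th of the 9447 IDs.

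The next members by T0 level per kb were protein 2981942 (1166 nt) at 1854 CPM per kb and protein 2970124 (1008 nt) at 1434 CPM per kb. Protein 2981942 was at 2306, 2089.8 and 2089.2 CPM at T0 and at 434, 363 and 532 CPM at 1 h. It was at 201, 313 and 254 CPM at 3 h and at 574, 322 and 534 CPM at 6 h. Its lowest level was thus at 3 h, where all 3 libraries lay below those of both 1 h and 6 h. Protein 2970124 was at 1330 CPM, 1257 CPM and 1749 CPM at T0, at 506, 263 and 338 CPM at 1 h, at 328, 365 and 358 CPM at 3 h, and at 409, 348 and 411 CPM at 6 h. Its later groups overlapped, with means of 369 ± 124, 350.1 ± 19.3 and 389 ± 35.7 CPM (SD, n = 3), a flat course after 1 h.

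The largest mean difference belonged to protein 2952294 (1212 nt), at 707, 531 and 592 CPM at T0 and 114, 91.8 and 137 CPM at 1 h. It was at 69.6, 74.8 and 61.0 CPM at 3 h and at 117, 53.3 and 126 CPM at 6 h. The 6 h libraries overlapped those of both 1 h and 3 h, and the lowest T0 library lay 1.94 on the log2 scale above the highest later one. Its differences from T0 were -2.40, -3.11 and -2.69 at 1, 3 and 6 h. Protein 2986400 (1297 nt) was at 563, 506 and 631 CPM at T0, at 110.2, 85.0 and 84.8 CPM at 1 h, at 63.0, 70.2 and 69.5 CPM at 3 h, and at 160.2, 79.7 and 127 CPM at 6 h. Its T0 mean was 6.08, 8.39 and 4.64 times the means at 1, 3 and 6 h, so its level was lowest at 3 h too.

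Protein 3001458 (1563 nt) was a less abundant member with a difference of the same size. It was at 66.1, 61.9 and 67.7 CPM at T0 and at 14.2, 23.3 and 8.48 CPM at 1 h. It was at 7.04, 7.85 and 6.84 CPM at 3 h and at 4.52, 3.92 and 17.2 CPM at 6 h. The high 6 h value is that of replicate 3, the library that stood apart at low counts, and rests on 131 reads, against 24 and 19 in replicates 1 and 2. Protein 2900863 (1437 nt) was at 925, 436 and 1086 CPM at T0, at 158, 94.6 and 85.4 CPM at 1 h, at 107, 110 and 134 CPM at 3 h, and at 211, 145 and 126 CPM at 6 h. Its T0 replicate 2 was under the other T0 libraries and still above every later library.

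**Figure D3:**
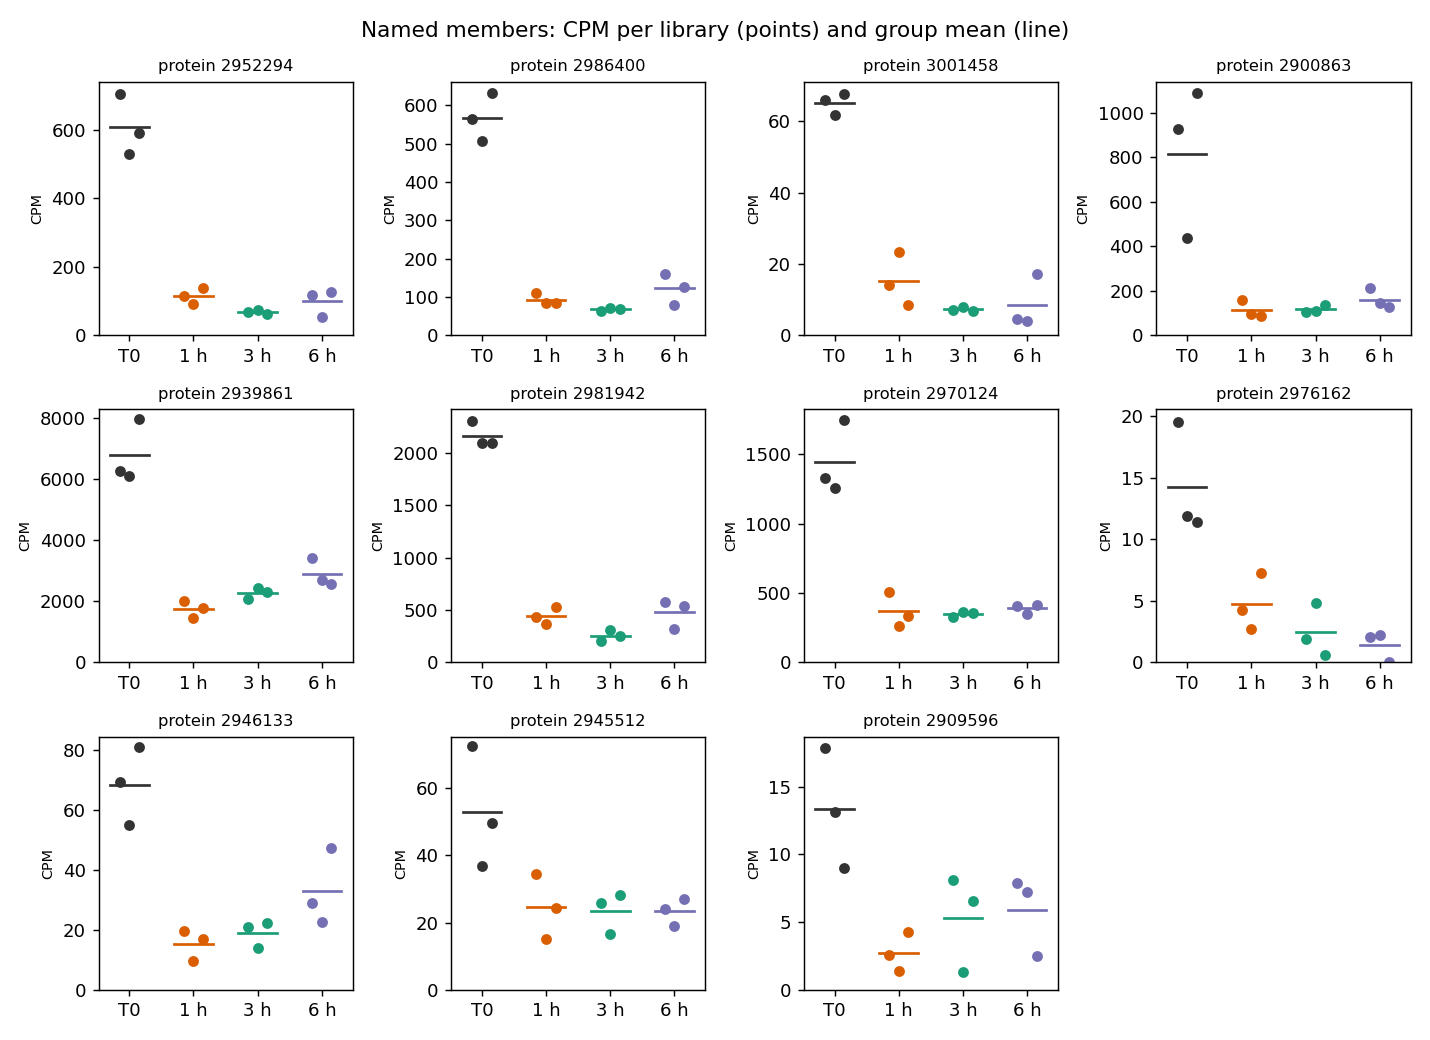
CPM of the 11 members described by ID, each on its own linear axis from 0, with the 3 libraries of T0, 1 h, 3 h and 6 h as points and the group mean as a line. In each panel the T0 points lie above all later points, as the rule requires. Protein 2939861 is lowest at 1 h and protein 2981942 at 3 h.

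The rule kept the 3 h and 6 h means within 1 of the 1 h mean on the log2 scale. Small movement after 1 h is therefore partly fixed by the choice. The group means at 1, 3 and 6 h spanned less than 0.5 on the log2 scale in 65 members and 0.5 to 1 in 47. The lowest mean was at 1 h in 29 members, at 3 h in 47 and at 6 h in 36. At 6 h, 83 members were within 0.5 of 1 h, 12 were at least 0.5 above it and 17 at least 0.5 below it. The 12 had median differences from T0 of -1.91, -1.63 and -1.18 at 1, 3 and 6 h, and the 17 had -1.25, -1.88 and -1.88. These classes were set after the values were seen and carry no test.

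The members at the ends and the middle of this range were taken by rule. Protein 2946133 (1400 nt) came back the furthest, from 69.2, 55.0 and 80.8 CPM at T0 to 19.6, 9.60 and 17.0 CPM at 1 h. It stood at 21.0, 13.7 and 22.3 CPM at 3 h and 29.0, 22.7 and 47.3 CPM at 6 h. Its 6 h libraries all lay above those of 1 h and 3 h and below T0. Protein 2976162 (530 nt) went on furthest in the other direction, with means of 14.3 ± 4.58, 4.76 ± 2.30, 2.45 ± 2.14 and 1.45 ± 1.26 CPM at T0, 1, 3 and 6 h (SD, n = 3). It had 171, 19 and 14 reads at T0 and 11, 11 and 0 at 6 h, so its course after 1 h rests on few reads. The 0 is in 6 h replicate 3, the library that stood apart at low counts, against 2.07 and 2.27 CPM in replicates 1 and 2. Its rank as the furthest rests on this 0. The 3 h libraries overlapped those of 1 h and 6 h, and each 6 h library lay below each 1 h library. Protein 2945512 (1533 nt) was the flattest member with at least 50 CPM at T0, at 53.0 ± 18.0, 24.6 ± 9.69, 23.5 ± 6.14 and 23.4 ± 4.05 CPM. Protein 2909596 (600 nt), the member just inside the rule, was at 13.3 ± 4.45, 2.71 ± 1.44, 5.32 ± 3.56 and 5.88 ± 2.95 CPM, and had 1 read in 1 h replicate 2.

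**Figure D4:**
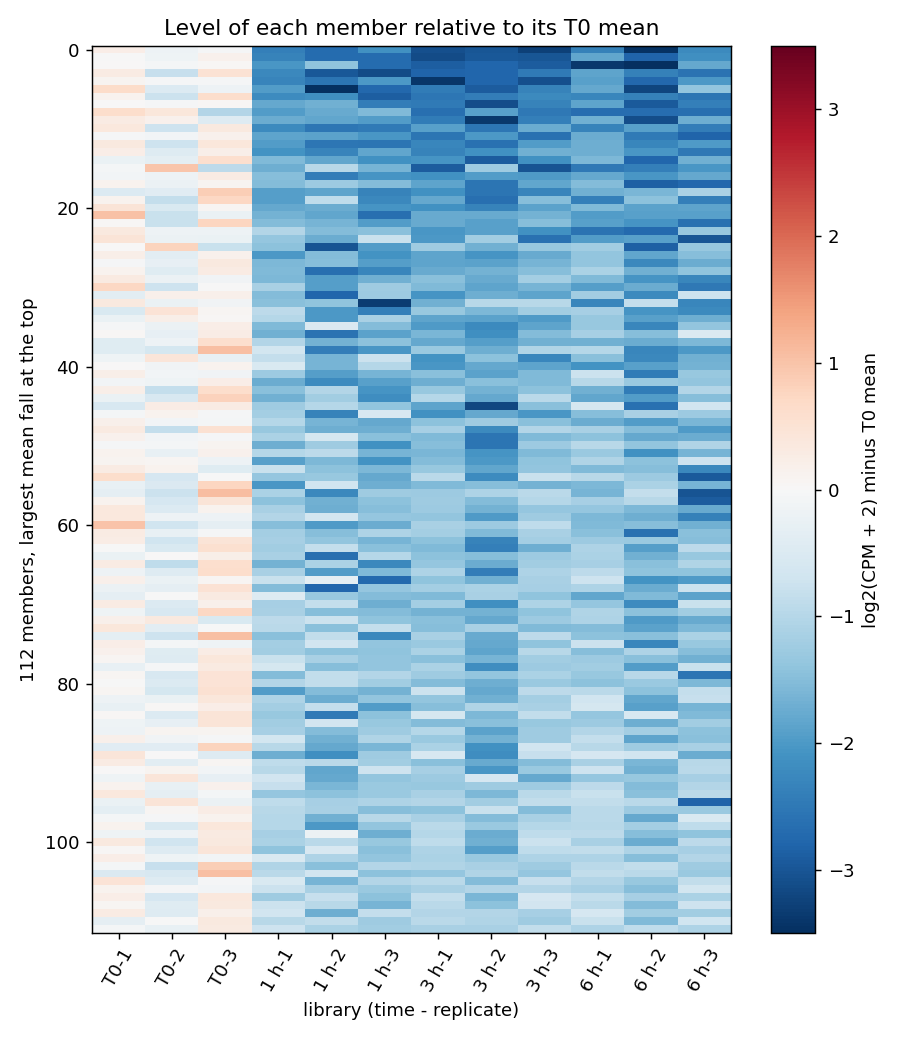
Each row is a member and each column a library, coloured by log2(CPM + 2) minus the member's T0 mean, with the largest mean fall at the top. The 9 columns after T0 are blue in nearly all rows. T0 replicate 2 is the palest or bluest T0 column in many rows, and was the lowest T0 library in 78 of 112 members.

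The comparison of 6 h with 3 h did not enter the rule directly, although holding both times near 1 h keeps their difference under 2. Median differences between these times were 0.04 on the log2 scale over the members and -0.08 over the 9447 IDs. By edgeR's quasi-likelihood test over all 12 libraries, 0 of 112 members differed between 3 h and 6 h after Benjamini-Hochberg adjustment (p under 0.05), and 0% of the 11813 IDs tested did. At an unadjusted p under 0.05 there were 11 members of 112 and 426 of 11813 IDs. DESeq2 called 0 members and 8 of all IDs, and at an unadjusted p under 0.05 it had 13 of 112 members and 549 of 13108 IDs. By both tools the unadjusted share was higher among the members than over all IDs, and that difference was not tested. It also varied with single libraries by edgeR. Without 3 h replicate 2 there were 6 members and 785 of 12030 IDs, and the members' share was no longer the higher. With any other library left out it stayed higher, from 3 members and 227 of 11905 IDs without 6 h replicate 3 to 22 members and 876 of 12038 IDs without 6 h replicate 2. A member not called is not shown to be level. For protein 2981942 the edgeR log2 fold change of 6 h over 3 h was 0.95 (SE 0.31, adjusted p = 0.996), and for protein 2986400 it was 0.93 (SE 0.25, adjusted p = 0.996).

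Looking at the libraries themselves, 6 members (5.36%) were higher in all 3 libraries at 6 h than in any at 3 h, where 3.04% of the 9447 IDs were. They included proteins 2939861, 2981942, 2986400 and 2946133 described above. In the opposite direction 5 members were lower in all 3 libraries at 6 h, which is 4.46% of the members, where 7.01% of the 9447 IDs were. The 5, named after their values were seen, were proteins 2990937, 2795361, 2979975, 2895953 and 2967427. Protein 2979975 (3207 nt) was at 111, 101 and 133 CPM at 3 h and at 100.6, 89.2 and 60.7 CPM at 6 h, the widest CPM gap between means of the 5 members. Both shares are of a few members and near the background.

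Between 1 h and the later times the rule limits what can be seen. By edgeR, 0 members were called between 1 h and 3 h, against 3.95% of the 11813 IDs, or between 1 h and 6 h, against 4.92%, by edgeR with Benjamini-Hochberg adjustment. At an unadjusted p under 0.05 edgeR had 14 members (12.5%) between 1 h and 3 h, against 17.5% of all IDs, and 10 members (8.93%) between 1 h and 6 h, against 18.3%. After adjustment DESeq2 called 3 members (2.68%) between 1 h and 3 h, against 7.03% of the IDs with a p, and 5 members (4.46%) between 1 h and 6 h, against 7.87%. The rule kept both differences under 1, so nothing is read from shares below the background. Against T0, the same test called 69 of 112 members lower at 1 h (3.15% of all IDs tested), 92 at 3 h (4.62%) and 79 at 6 h (3.18%). At all 3 times 62 members were called lower, against 0.753% of all IDs, and 16 members were called at none. As the rule used these contrasts, nothing is read from the counts.

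Each library was left out in turn, IDs were chosen anew with the other 11, and the library left out was then read. The other libraries are shared between these choices. The libraries that the left-out library is set against did enter the choice, so a high share is partly fixed. The share over the 9447 IDs, which were not so chosen, is no matched baseline. Without T0 replicate 1 the rule chose 120 IDs, and 109 of them (90.8%) lay above all 9 later libraries in T0 replicate 1, where 26% of the 9447 IDs did. Without T0 replicate 3 it chose 109 IDs, and 91 (83.5%) lay above in that library, where 25.8% of all IDs did. Without T0 replicate 2 it chose 329 IDs, and 159 (48.3%) lay above in it, where 14.8% of all IDs did. Among single libraries left out, T0 replicate 2 thus changed the number of IDs meeting the rule the most. Leaving out any library also loosens the condition of no overlap.

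The size of the difference in the library left out showed the same split. In T0 replicates 1 and 3 the chosen IDs lay a median of 1.39 and 1.46 above the mean of the later libraries on the log2 scale, close to the 1.49 and 1.51 in the 2 T0 libraries that chose them. In T0 replicate 2 the median was 0.56, against 1.42 in the other T0 libraries. For the 9 later libraries, between 83.3% and 100% of the IDs chosen without a library lay below all T0 libraries in it, where 23.6% to 37.0% of all IDs did. The lowest of these shares was that of 1 h replicate 2, the library with the fewest reads outside the dominant pair. Without 6 h replicate 3 the rule chose 114 IDs, of which 100 were among the 112.

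**Figure D5:**
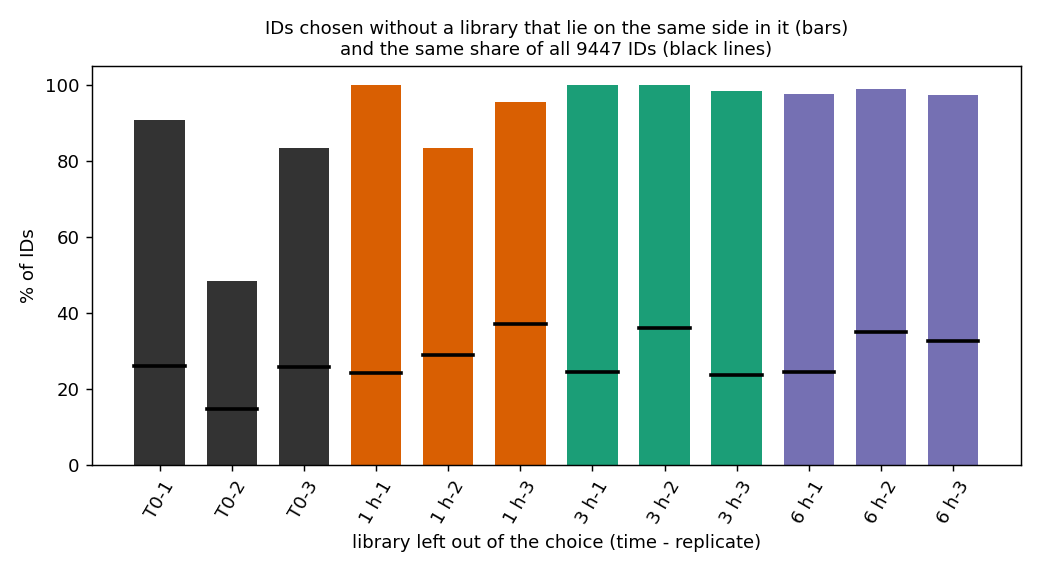
For each library, the bar is the percentage of IDs chosen with the other 11 libraries that lie on the same side in it, that is above all 9 later libraries for a T0 library and below all 3 T0 libraries for a later one. Black lines give the same percentage of the 9447 IDs, which were not chosen in this way. The bars stand between 83.3% and 100% except that of T0 replicate 2, at 48.3%.

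T0 replicate 2 was the lowest T0 library in the member median and in the other features given here, while the order of replicates 1 and 3 differed between them. The member median was 6.27, 6.02 and 6.41 on the log2(CPM + 2) scale in T0 replicates 1 to 3, and the median of the 9447 IDs was 5.69, 5.41 and 5.58. The level per doubling of gene length changed by 0.22, -0.20 and 0.31 in the same libraries, so long transcripts were relatively lower in replicate 2. The part of these features in the result was not tested. With the length trend of each library removed, an alternative chosen after seeing the data, 113 IDs met the rule and 87 of them were members.

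Length itself, which the rule did not use, was somewhat above that of other expressed genes. The members had a median of 1527 nt (quartiles 1171 and 1936 nt), against 1356 nt (quartiles 908 and 1947 nt) over the 9447 IDs. Gene models under 1000 nt made up 17.9% of the members and 30.0% of the 9447 IDs, and those from 1000 to 2000 nt 59.8% and 46.4%. The shortest member had 249 nt and the longest 11796 nt. Within the 3 length classes the members' median difference at 1 h was -1.46, -1.43 and -1.48, from short to long, while that of all IDs went from 0.22 through -0.06 to -0.32. The rule set an upper limit of -1 to the members' values in every class, so they cannot be compared with the trend of all IDs.

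In T0 level per length, the members stood above the background. Their median was 45.8 CPM per kb (quartiles 22.0 and 153), against 32.0 CPM per kb (quartiles 14.8 and 78.2) over the 9447 IDs, and 45 of 112 lay above the upper quartile of those IDs. A rule that asks for a low level later and 10 CPM in a group favours IDs that are high at T0. The 13 members at 500 CPM or more at T0 held 63.2% of the summed T0 CPM of the members, while the 17 under 20 CPM held 0.848%. The spread between replicates was near that of other IDs, with a median SD of 0.38 on the log2 scale at T0, against 0.44 over the 9447 IDs. It was 0.40 against 0.34 at 1 h, 0.25 against 0.28 at 3 h and 0.38 against 0.32 at 6 h. The members were thus tighter at T0 and 3 h and wider at 1 h and 6 h, though overlap between libraries also entered the rule.

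Reads shared between gene models touched few members. A total of 11 members had any read that was not unique to a gene model, which is 9.82%, against 13.1% of the 9447 IDs. Over 5% of the reads were shared in 2 members. Protein 2977354 (2450 nt), named after its values were seen, shared 52.6% of its reads, and its level is uncertain for that reason, while protein 2976162 shared 5.71%. Counting unique reads only, 110 IDs met the rule, and 109 of these were members.

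The members were set beside gene models with other time courses, found by like rules. A mirrored rule kept 121 IDs that were higher at 1 h and held, 120 IDs were lower at 1 h and back at 3 h, and 102 were lower from 3 h only. Median lengths were 1527 nt for the members, 1008 nt for those raised and held, 1397 nt for those back at 3 h and 1184 nt for those lowered later. Median T0 levels were 45.8, 18.3, 63.2 and 103 CPM per kb in the same order. The IDs lowered later were thus the most abundant per length at T0 and those raised and held the least, but the rules fix part of that order and none of these differences was tested. At 6 h the median difference from T0 was -1.54 for the members and -1.49 for those lowered from 3 h, while those back at 3 h had -0.04.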

How the data were processed

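The members, the lists they are set beside and the tests were chosen with earlier results of these data known. Each deposited sample table lists 13602 protein IDs with, per the file headers, raw counts of reads (all gene reads, and those unique to the gene) and an RPKM value. The RPKM values deposited by the authors equal total gene reads per kb and per 1000000 reads (largest relative gap 1.6e-08) and served only to recover gene lengths. Not given in the sources used here: the aligner, counting tool, genome build, annotation and strand setting.

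Levels are total gene reads per 1000000 of the reads left without the 2 dominant IDs. Counts went into the quasi-likelihood test of edgeR 4.0.16 under R 4.3.3 (TMM scaling, filterByExpr keeping 11813 IDs, 12 libraries, group as the only term, 8 residual degrees of freedom, common biological coefficient of variation 0.333), with Benjamini-Hochberg adjustment over all IDs. The SE printed was derived from F, as the absolute log2 fold change divided by its root. DESeq2 1.42.0 was an alternative. The scripts were tested on simulated data. No replicates were duplicates (chi-square per ID at least 9.86), and p-values measure the spread between the labelled biological replicates. IDs were named by rule: 4 with the largest mean difference, 3 with the highest T0 level per kb, the extremes and the flattest after 1 h, and the one just inside the rule. No gene lists were used, since the IDs carry no names. The upper limits given for IDs with 0 reads cover counting error only, while each ± value is the SD between biological replicates.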

Additional observations from a re-analysis of the deposited data

How the results depend on the processing

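The 112 IDs meeting the rule became 31 (24 of them members) with the dominant pair kept in the total, 212 with a fall of 0.8, 23 with a fall of 1.5, and 93 to 329 with a library left out. The highest count is without T0 replicate 2, and 333 met the rule without it and 6 h replicate 3. TMM scaling gave 80 and DESeq2 size factors 84, of which 78 and 82 were members. Called members ran from 31 to 79 at 1 h, 63 to 98 at 3 h, 51 to 84 at 6 h and 0 to 0 between 3 h and 6 h with a library left out. At 1 h, leaving out T0 replicate 1 gave 45, T0 replicate 3 gave 41, 1 h replicate 1 gave 40 and 1 h replicate 3 gave 31, while calls over all IDs went from 372 to 183, 154, 140 and 101. At 6 h, leaving out T0 replicate 1 or T0 replicate 3 gave 51, and the 2 groups alone gave 52, while calls over all IDs went from 376 to 179, 226 and 174. DESeq2 gave 92, 102 and 100 at 1, 3 and 6 h, with 693, 839 and 698 over all IDs against 372, 546 and 376 by edgeR. The other planned settings kept these counts within 1.5 times.

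Median differences ran from -1.57 to -1.29 at 1 h, -1.65 to -1.37 at 3 h and -1.68 to -1.37 at 6 h with a library left out, and the 1 h median was -1.24 with a pseudocount of 5. With the pair kept in the total the medians were -0.97 at 3 h and -1.11 at 6 h, while the medians of all 9447 IDs moved to 0.48 and 0.28. TMM scaling moved the 6 h median of all IDs from -0.11 to 0.02. All 112 members were below T0 at each time under the 3 other scalings, which their choice nearly fixes. Fewer kept a difference of at least 1 at 1, 3 and 6 h. These were 96, 109 and 92 with TMM scaling and 97, 110 and 94 with DESeq2 size factors. With the pair kept in the total they were 112, 51 and 64. Of 627 values of the named members under other settings, 604 moved by less than the replicate SD and 0 reversed. Leaving out a library of a later time cannot move the values at the other times, so part of the 604 is fixed. The rule kept only IDs with each later library below T0, so the lack of reversals is largely fixed too. The replicate numbers showed no consistent pairing of the libraries, which does not exclude a pairing. Same-number correlations of deviations ran from -0.47 to 0.59 (median 0.011), and those between different numbers from -0.63 to 0.45 (median 0.012). Of 12 libraries, 6 correlated best with their own number. With a replicate block the called members were 63, 86, 70 and 0. Depth limits the low members most in 1 h replicate 2. The causes of these shifts were not tested.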
